A study of Dugesia japonica with 157 samples.

Results

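The 100 most abundant transcripts of the whole planarian were examined across serial sections of the body. They were selected on measured values. In each of 3 tables the counts of every column were divided by the column total and expressed in CPM, the usual unit of counts scaled to library size, and the mean CPM was taken over columns whose total was at least 20% of the table's median total. The 3 means were then averaged, and the 100 rows with the highest average were taken from 25566 rows. The animals were Dugesia japonica of strain AF, a freshwater flatworm, sampled as whole bodies with no treatment or age given in the labels. The libraries fell into 78 sections along the anterior-posterior (AP) axis, 28 along the dorsal-ventral (DV) axis and 51 along the right-left (LR) axis, all of polyadenylated RNA. The labels name no replicate animals and do not say how many animals were cut, so sections stand in for replicates.

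Planarians have a head at the anterior end, a pharynx in the trunk through which they feed, a branched gut, and a body wall of epidermis and muscle. In most animal tissues a small number of genes supplies a large part of the messenger RNA, among them genes for ribosomal proteins, the mitochondrial respiratory chain, the cytoskeleton and the secreted products of glands. A library is a fixed number of reads shared among all transcripts, so a transcript that takes more of them leaves fewer for the others. Rows carry identifiers alone in these tables, without a gene name beside them. No member could therefore be given a function, and identifiers are printed as deposited. Transcript lengths are not in the tables, so levels were not scaled by length. A level is a share of reads and not a number of molecules.

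Column totals ran from 70569 to 12945391 estimated counts in the AP table, from 275287 to 26807303 in the DV table and from 19222 to 13052596 in the LR table. Sections below 20% of the median total were left out of every test, which removed 2 AP, 7 DV and 14 LR sections and left 69, 21 and 37. A further 7 AP columns could not be tied to 1 section by name. They entered the selection where deep enough but no test along the axis, so AP sections 1 to 7, at the tip of the head, are not covered. For comparisons the labelled sections of an axis were split in order into 3 parts, equal in AP and LR and near equal in DV. All 100 members passed the filter on low counts in each axis, among 13781 AP, 18291 DV and 16463 LR rows tested. A count of 0 occurred in 1 of 6900 AP values of the members, in 0 of 2100 DV values and in 1 of 3700 LR values.

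The 100 members held on average 55.7% of the counts of an AP column, 48.4% of a DV column and 53.2% of an LR column. The next 100 rows held 8.42%, 9.61% and 9.13%. The course of the levels was steep at the top. DjGI002446_001, the highest row in each of the 3 axes, took 15.2% of AP, 9.29% of DV and 12.1% of LR counts by itself. The 10 highest rows took 31.7%, 25.7% and 28.5%. The edge of the list was flat: DjGI008006_001 at rank 100 averaged 1228 CPM and DjGI015638_001, the row just below it, averaged 1226 CPM. These levels and shares chose the members and were not tested.

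**Figure D1:**
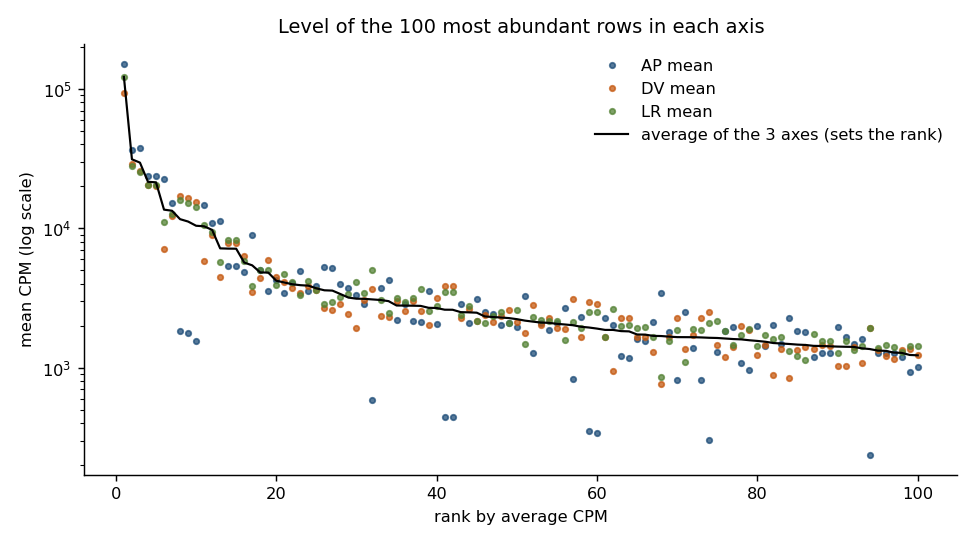
Mean CPM (log scale) of the 100 members against their rank by the average of the 3 axes, with a point for each axis and a line for the average. The line drops from 122104 CPM at rank 1 to 1228 CPM at rank 100, and the low AP points include the rows of identifier DjGI000022.

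The 3 axes largely shared the same abundant rows. Of the 100 highest rows within an axis, 85 were members in AP, 88 in DV and 94 in LR, and 70 rows stood in all 3 such lists. Overlap with the members is partly built in, since they were ranked on the average of the same levels. The DV and LR lists shared 86 rows, the AP and DV lists 76, and the AP and LR lists 79. Among the members the rank correlation of levels was 0.92 for DV and LR, 0.49 for AP and DV, and 0.57 for AP and LR. Among the members the ratio of the mean DV and LR level to the AP level had a median of 0.998, and it lay between 0.5 and 2 for 80 members. The exceptions were large. In 10 members the ratio was above 7, and the highest was 9.5. These 10 were 8 rows of identifier DjGI000022 together with DjGI019217_001 and DjGI019317_001. DjGI000022_002 stood at 1846 CPM in AP columns, 17106 CPM in DV columns and 15978 CPM in LR columns. By library name the AP columns are a series of their own, while the DV and LR columns share another with running numbers. An axis, an animal and a batch therefore cannot be told apart in this difference.

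The members' share was compared between parts as a description, with no test. In AP sections it had a median of 51.4% in the anterior part (45.3% to 60.0%, n = 19 sections), 58.2% in the middle part (51.5% to 67.2%, n = 26) and 58.7% in the posterior part (44.7% to 71.8%, n = 24). In DV sections it was 50.4% in the dorsal part (39.0% to 53.4%, n = 5), 50.9% in the middle part (50.1% to 51.8%, n = 8) and 46.8% in the ventral part (26.4% to 53.6%, n = 8). In LR sections it was 59.1% in the right part (48.5% to 70.8%, n = 8), 51.0% in the middle part (48.2% to 68.3%, n = 15) and 49.5% in the left part (43.6% to 57.6%, n = 14). The parts overlapped in every axis. Depth moved with the share, in opposite directions in 2 axes. Shallow DV sections below the minimum gave the members 27.0% to 33.4% of their counts, among them dorsal section 6 and middle section 18, while shallow LR sections gave them 50.4% to 69.5%.

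**Figure D2:**
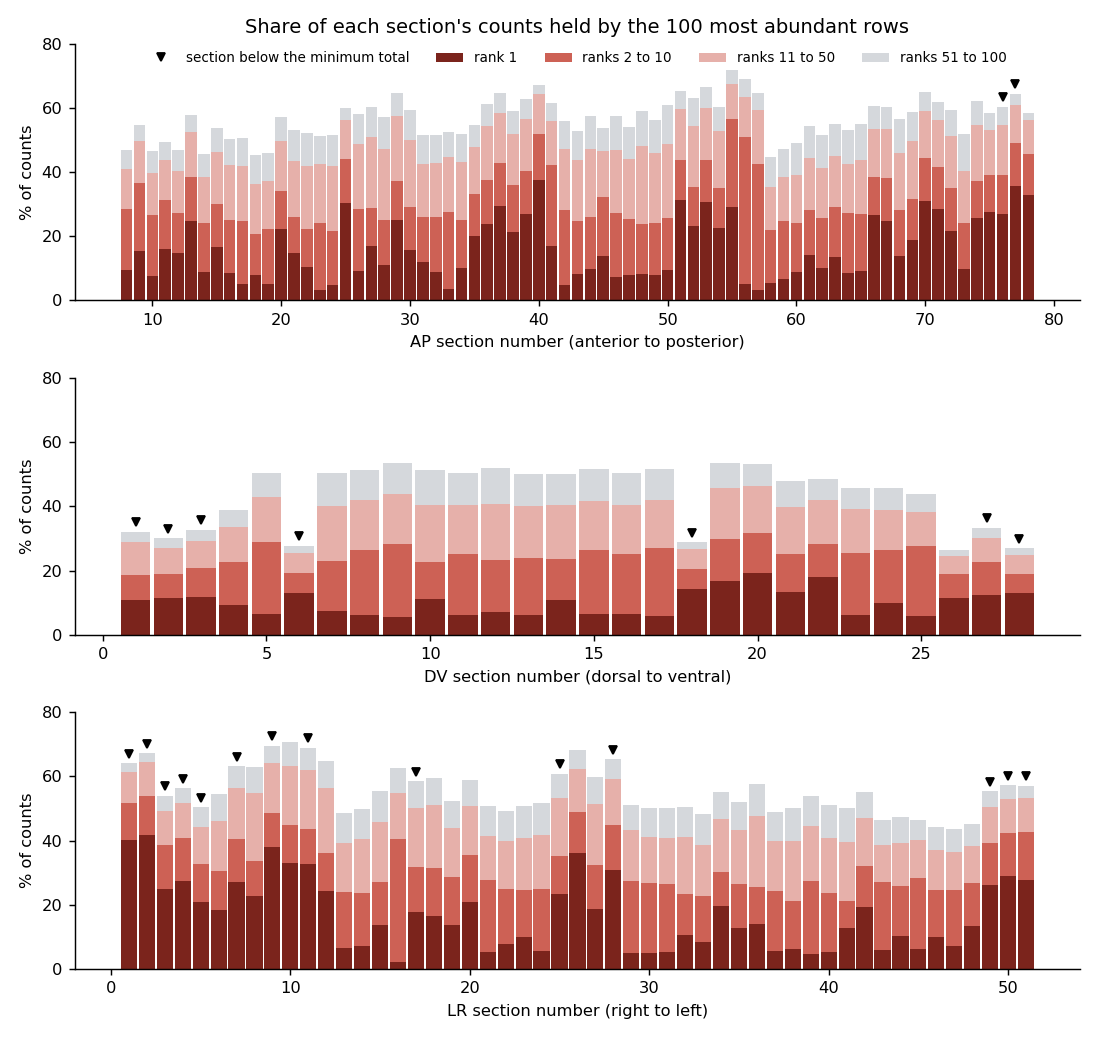
Percent of each section's counts held by the members (vertical axis) against section number, stacked by rank band, with a black triangle over sections below the minimum total. The DV middle sections without a triangle lie between 50.1% and 51.8%, and the DV sections with a triangle between 27.0% and 33.4%.

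Position along the axis was tested row by row across the whole table, with a spline in section number that lets a level rise and fall smoothly. A row was called at an adjusted p under 0.05 (edgeR quasi-likelihood F-test, Benjamini-Hochberg adjustment over all rows tested). By this test 76 members depended on position in AP sections, where 22.6% of all rows tested were called. In DV sections 70 members were called against 16.4% of all rows, and in LR sections 41 against 9.17%. The 100 rows next in rank gave 59, 79 and 27 calls. Abundant rows have more counts than the average row, and the part of depth in these higher shares was not tested. A total of 33 members were called in all 3 axes, 25 in exactly 2, 38 in exactly 1 and 4 in none. These p-values measure the spread between sections only. Library numbers follow section order in the labels, so a drift with library order and a dependence on position cannot be told apart.

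Comparisons of parts called fewer members. Between the AP end parts, 4 members were higher in the anterior part, where 1.73% of all rows were called, and 10 were higher in the posterior part, where 0.711% were. With column totals in place of the TMM factors (edgeR's scaling by a trimmed mean of log ratios), this split was 8 and 8. For the middle part over the mean of the ends, 16 AP members were higher in the middle (background 1.33%) and 1 was higher in the ends (0.261%). In DV sections 4 members were higher in the dorsal part (0.492%). No member was called higher in the ventral part by edgeR (0.306%), where 10 had an unadjusted p under 0.05 and DESeq2 called 3. At that unadjusted level 37 members passed between the dorsal and ventral parts in either direction, as did 12.6% of all rows. In the DV middle part 19 members were higher (4.69%) and 1 was lower (4.41%), a split of 17 and 4 with column totals.

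In LR sections no comparison of parts called a member by edgeR. The background was 0.0425% for rows higher in the right part, 0% for the left part, 0.778% for the middle part and 0.213% for the sides. At an unadjusted p under 0.05 there were 14 members between the right and left parts, where 8.05% of all rows passed, and 25 between the middle and the sides, where 10.2% passed. DESeq2 called 1 and 4 members. The scaling moved the median log2 fold change of all rows: with TMM factors and with column totals it was 0.22 and 0.44 for anterior over posterior, 0.01 and -0.17 for the AP middle, 0.12 and -0.23 for the DV middle, -0.13 and -0.39 for right over left, and 0.12 and 0.00 for the LR middle. The members' own medians with TMM factors were -0.22, 0.11, 0.57, 0.25 and 0.07.

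To describe which members ran together, they were grouped by average linkage on the mean of their 3 correlations across sections (log2 of scaled CPM plus 1, 69 AP, 21 DV and 37 LR sections), at a mean r of 0.7. This grouping used the section values themselves and its limit was chosen after they were seen, so it is a description with no test. It gave 11 groups of 2 or more rows, which held 91 members, and left 9 members alone. Each group is called here by its highest-ranked row. Scaled CPM are CPM with TMM factors, and shares of counts are taken from the unscaled counts.

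**Figure D3:**
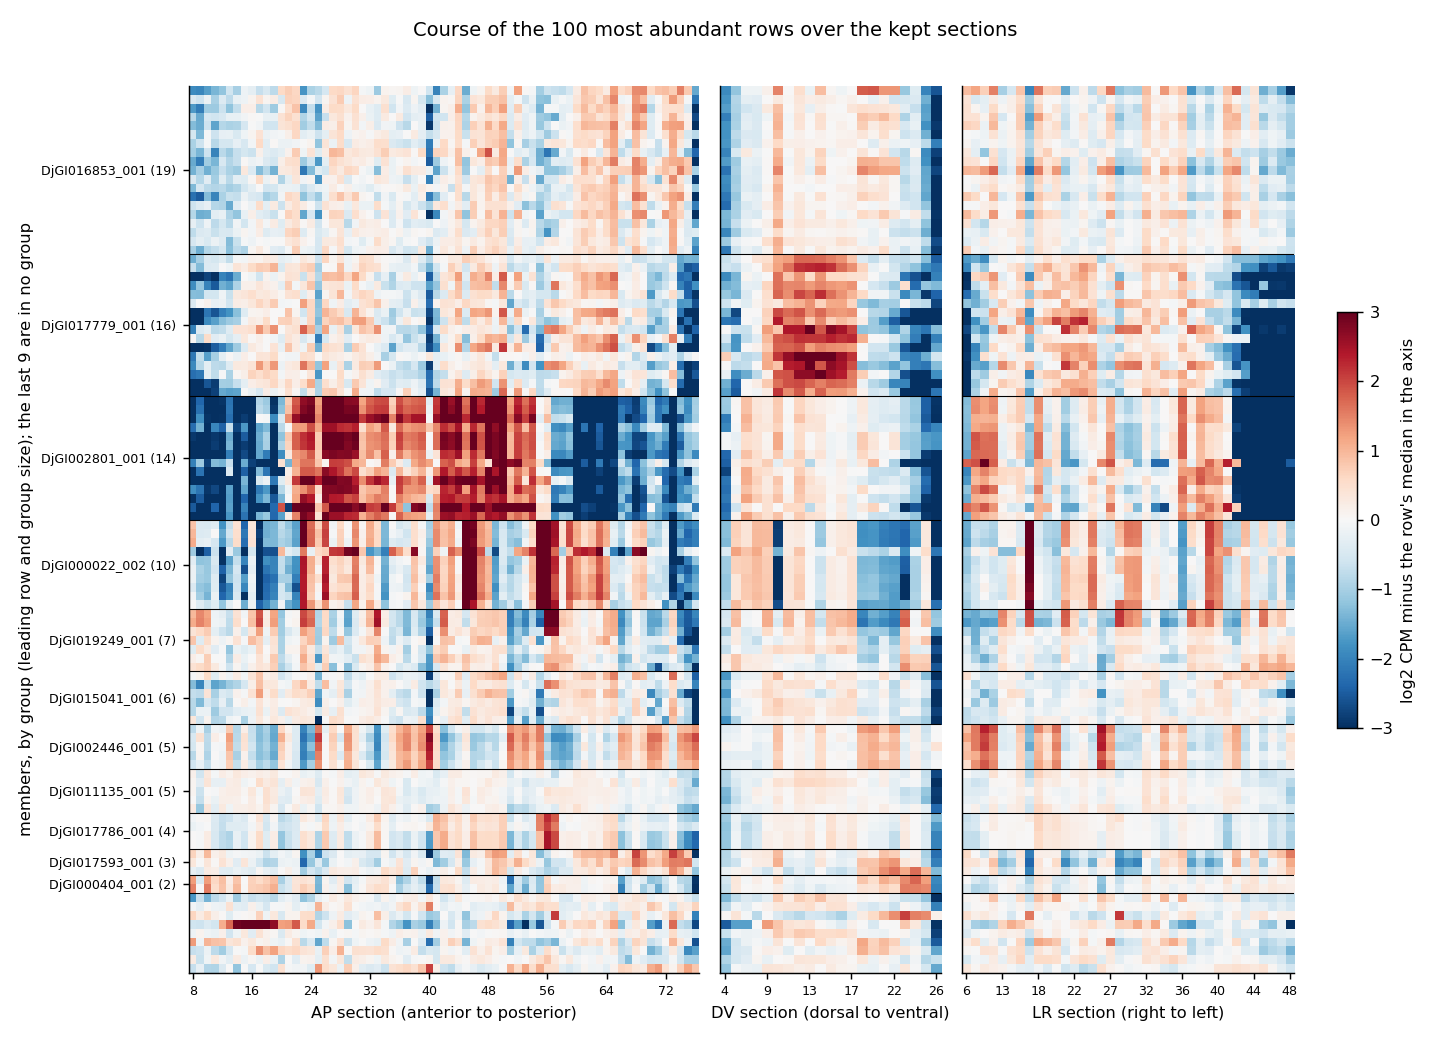
Log2 scaled CPM of each member (rows of the map) minus its median in the axis, over the sections above the minimum total in AP, DV and LR order, with rows sorted by group and the colour scale ending at 3 on either side of 0. The 14 rows of the DjGI002801_001 group are high over most of an AP block from about section 20 to 56. Their share of counts was low within it at section 40 (1.30%) and at its ends, sections 20 (1.05%) and 56 (1.18%). The 16 rows of the DjGI017779_001 group are high in DV sections 10 to 17.

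The clearest AP course belonged to the 14 rows of the DjGI002801_001 group, which were high in the middle of the body. All 14 were higher in the middle part than in the mean of the end parts, with log2 fold changes of 2.01 to 3.11, and these 14 made up most of the 16 members called there. The group's share of counts was 0.307% at the median of AP sections 8 to 19 (0.132% to 0.833%), 5.72% in sections 20 to 56 (1.05% to 12.6%) and 0.434% in sections 57 to 78 (0.0750% to 0.977%). Among the analysed sections the block of high sections does not overlap with those before or after it. AP sections 76 and 77, below the minimum total, stood between 0.909% and 1.22%, which reaches above the lowest section of the block. Its borders were read from the values and lie inside the anterior and posterior parts, so the comparison of parts averages across the step. In bulk sections, fewer cells of a type and less RNA per cell cannot be told apart.

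Within the group DjGI018932_001 had the largest difference. It had a lowest, median and highest value of 112, 2214 and 17866 scaled CPM in the 26 middle sections, against 4, 49 and 3452 in the 19 anterior sections and 2, 62 and 2402 in the 24 posterior sections. The parts overlap at their edges, and the medians are far apart. Its log2 fold change of middle over ends was 3.11 (SE 0.54, adjusted p = 4.7e-05). DjGI017651_001 had a median of 9432 scaled CPM in the middle part, against 360 in the anterior and 265 in the posterior part, and a log2 fold change of 2.54 (SE 0.46, adjusted p = 8.44e-05). All 14 rows were called higher in the AP middle under each of the 7 other settings tried.

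The same 14 rows had a sharp border among the analysed LR sections. Their share was 5.14% at the median of sections 6 to 42 (1.08% to 12.8%, n = 31) and 0.124% in sections 43 to 48 at the left side (0.0817% to 0.348%, n = 6). No analysed section of the left run reached the lowest section of the other run. This border was also read from the values. The 14 LR sections below the minimum total stood between 0.694% and 9.07%, which reaches below the lowest section of the high run. Sections 49 to 51 at the left edge are among them. All of them stood above every section of the low run, whose highest was 0.348%. Sections 1 to 5 at the right edge were below the minimum total, so a matching border on the right is not covered. In DV sections the group stood at 3.39% in section 4 and 5.98% in section 5, at a median of 5.85% in sections 7 to 22 (4.58% to 10.9%, n = 15) and at 2.14% in sections 23 to 26 (1.26% to 3.55%, n = 4). The spline called all 14 rows in each of the 3 axes.

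The 16 rows of the DjGI017779_001 group had the clearest DV course, a dome over the middle of the body. All 16 were higher in the DV middle part than in the mean of the dorsal and ventral parts, with log2 fold changes of 1.43 to 3.31. The share of the group was 2.10% at the median of the 5 dorsal sections, 6.24% in the 8 middle sections and 1.27% in the 8 ventral sections. Among the analysed sections the lowest middle section stood at 4.86%, above the highest dorsal section at 3.18% and the highest ventral section at 2.32%. The 7 DV sections below the minimum total, among them middle section 18, stood between 0.944% and 1.87%. Section 18 therefore lay below every analysed middle section. Depth moved with this course: the median total was 14600694 counts in the middle part, against 4323922 in the dorsal and 1874285 in the ventral part. With the section total in the model 14 of the 16 rows were still called.

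DjGI003158_001 had the largest DV difference. It stood at 2025, 3407 and 5587 scaled CPM (lowest, median, highest) in the 8 middle sections, against 764, 331, 263, 287 and 989 in the 5 dorsal sections and 110, 269 and 461 (lowest, median, highest) in the 8 ventral sections. Among the analysed sections the middle part did not overlap with either end. Its log2 fold change of middle over ends was 3.31 (SE 0.33, adjusted p = 1.34e-07). DjGI000212_002 had a median of 2200 scaled CPM in the middle part, against 229 in the dorsal and 162 in the ventral part, and a log2 fold change of 3.11 (SE 0.43, adjusted p = 1.78e-05).

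Along LR sections the same 16 rows were high in the interior and low at the left side. Their share was 4.29% at the median of sections 10 to 40 (1.84% to 6.60%, n = 27) and 0.709% in sections 41 to 48 (0.562% to 2.02%, n = 8), and the 2 sections at the right, 6 and 8, stood at 0.708% and 1.85%. The borders of these LR runs were read from the values, and the runs overlap. Section 10, at 1.84%, lay below section 8 and below section 41, at 2.02%. Along AP sections the share had a median of 2.34% over sections 8 to 11 (1.75% to 2.82%) and of 4.73% over sections 12 to 78 (0.908% to 8.02%), and the ranges overlap. By edgeR with TMM factors no difference of AP parts was called for these rows. With column totals 1 row was called higher in the anterior part, without sections 55 to 59 there were 3 such rows, and DESeq2 called 0. The spline called all 16 in each axis. Together the DjGI002801_001 and DjGI017779_001 groups made up 30 of the 33 members called by the spline in all 3 axes.

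**Figure D4:**
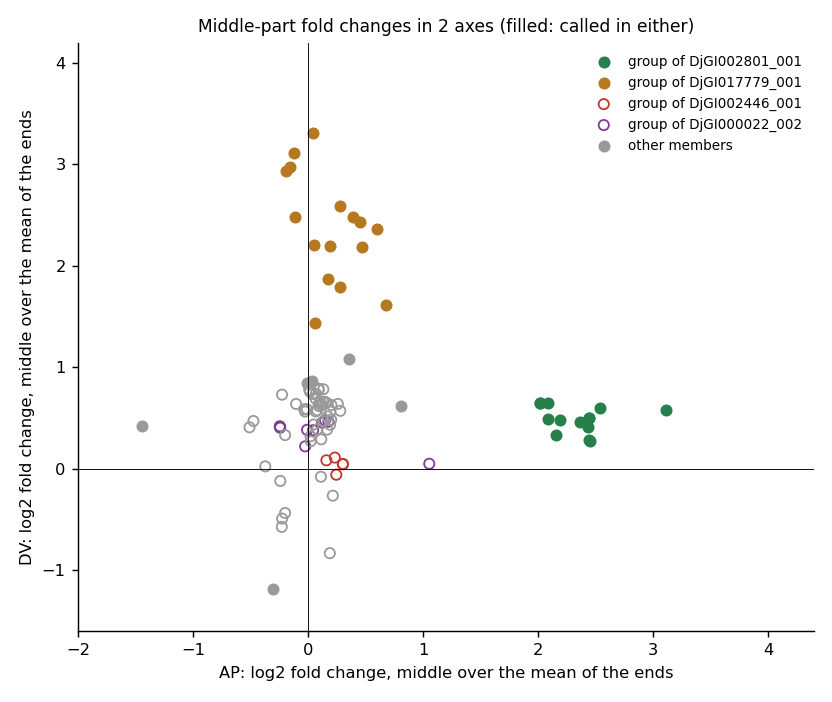
Log2 fold change of the middle part over the mean of the end parts for each member, AP on the horizontal and DV on the vertical axis, filled where the member was called in either. The DjGI002801_001 group lies at 2.01 to 3.11 on the AP axis and the DjGI017779_001 group at 1.43 to 3.31 on the DV axis, with no row high on both.

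The 2 sets of calls met in 1 member. DjGI009242_001 was the only member called higher in the middle part of both AP and DV sections, with log2 fold changes of 0.35 (adjusted p = 0.0132) and 1.08 (adjusted p = 0.0159), and it was also higher in the posterior than in the anterior part, with a log2 fold change of -0.68 for anterior over posterior (adjusted p = 2.55e-05). It belonged to neither group and was named after its values were seen. Once the section total was added as a covariate, DjGI009242_001 kept its AP middle call and lost its DV middle call. The member called lower in the DV middle was DjGI017552_001. It had 727, 903 and 1084 scaled CPM (lowest, median, highest) in the middle sections, against 1427, 1829, 1340, 801 and 1397 in the 5 dorsal sections and 1561, 3203 and 5835 (lowest, median, highest) in the ventral sections. Every analysed ventral section was above every analysed middle section, and 1 dorsal section lay inside the middle range. The log2 fold change of middle over ends was -1.19 (SE 0.26, adjusted p = 0.00515).

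The largest block of counts belonged to the 5 rows of the DjGI002446_001 group, which held 20.0% of AP, 11.1% of DV and 14.5% of LR counts. These rows ran in near lockstep, with no correlation below 0.97 in AP, 0.91 in DV and 0.96 in LR sections, although each has an identifier of its own. They jumped between neighbouring sections rather than following a smooth course. In AP sections the share of the group ran from 3.99% in section 23 to 53.4% in section 40, around a median of 17.8%. In LR sections it ran from 2.70% in section 16 to 42.5% in section 26. The spline called 3 of the 5 rows in AP, 1 in DV and 0 in LR sections by edgeR, and no comparison of parts called any of them at the stated filter and minimum. With no filter on low counts, or without sections 55 to 59, 1 of them was called higher in the posterior part.

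DjGI002446_001 itself took 3.11% to 30.4% of the counts of an anterior section, 3.45% to 37.6% of a middle section and 3.36% to 33.0% of a posterior section, with medians of 9.55%, 13.0% and 16.4%. The 3 AP parts overlapped over nearly their whole range. Its log2 fold change of anterior over posterior was -0.68 (SE 0.25, adjusted p = 0.153), and that of dorsal over ventral was -0.87 (SE 0.35, adjusted p = 0.276). In DV sections it reached 19.2% in ventral section 20.

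The DjGI002446_001 group tended to be higher in shallower sections. The correlation of its mean log2 level with the log2 section total was -0.82 over 69 AP sections, -0.30 over 21 DV sections and -0.74 over 37 LR sections. In the 14 LR sections below the minimum the share of the group had a median of 35.2% (21.2% to 54.3%), against 12.3% in the LR sections above it. In the 7 such DV sections the median was 15.1%, against 8.47% above the minimum. In AP the 2 sections below the minimum stood at 37.4% and 49.8%, and section 40, at 53.4%, had 825916 counts, above the median total of the table. With the section total in the model all 5 rows were called higher in the AP middle and 3 in the LR middle. The part of section depth in the course of these rows was not tested beyond the model with the section total.

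The 7 rows of the DjGI019249_001 group ran opposite to it in every axis. The 2 groups' shares of counts had correlations (log2 scale) of -0.92 over AP, -0.89 over DV and -0.85 over LR sections, where both are shares of the same totals. Within it DjGI019249_001 and DjGI017457_001 had a correlation of 0.997 in each axis. The mean level of the group was higher in deeper sections, with correlations of 0.82 in AP, 0.63 in DV and 0.66 in LR sections. In AP sections the share of the group had a median of 2.91% and its highest value was 19.1% in section 57, where the DjGI017786_001 group stood at 28.3%. DjGI019249_001 was called by the AP spline (adjusted p = 0.00879) and by no other comparison.

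**Figure D5:**
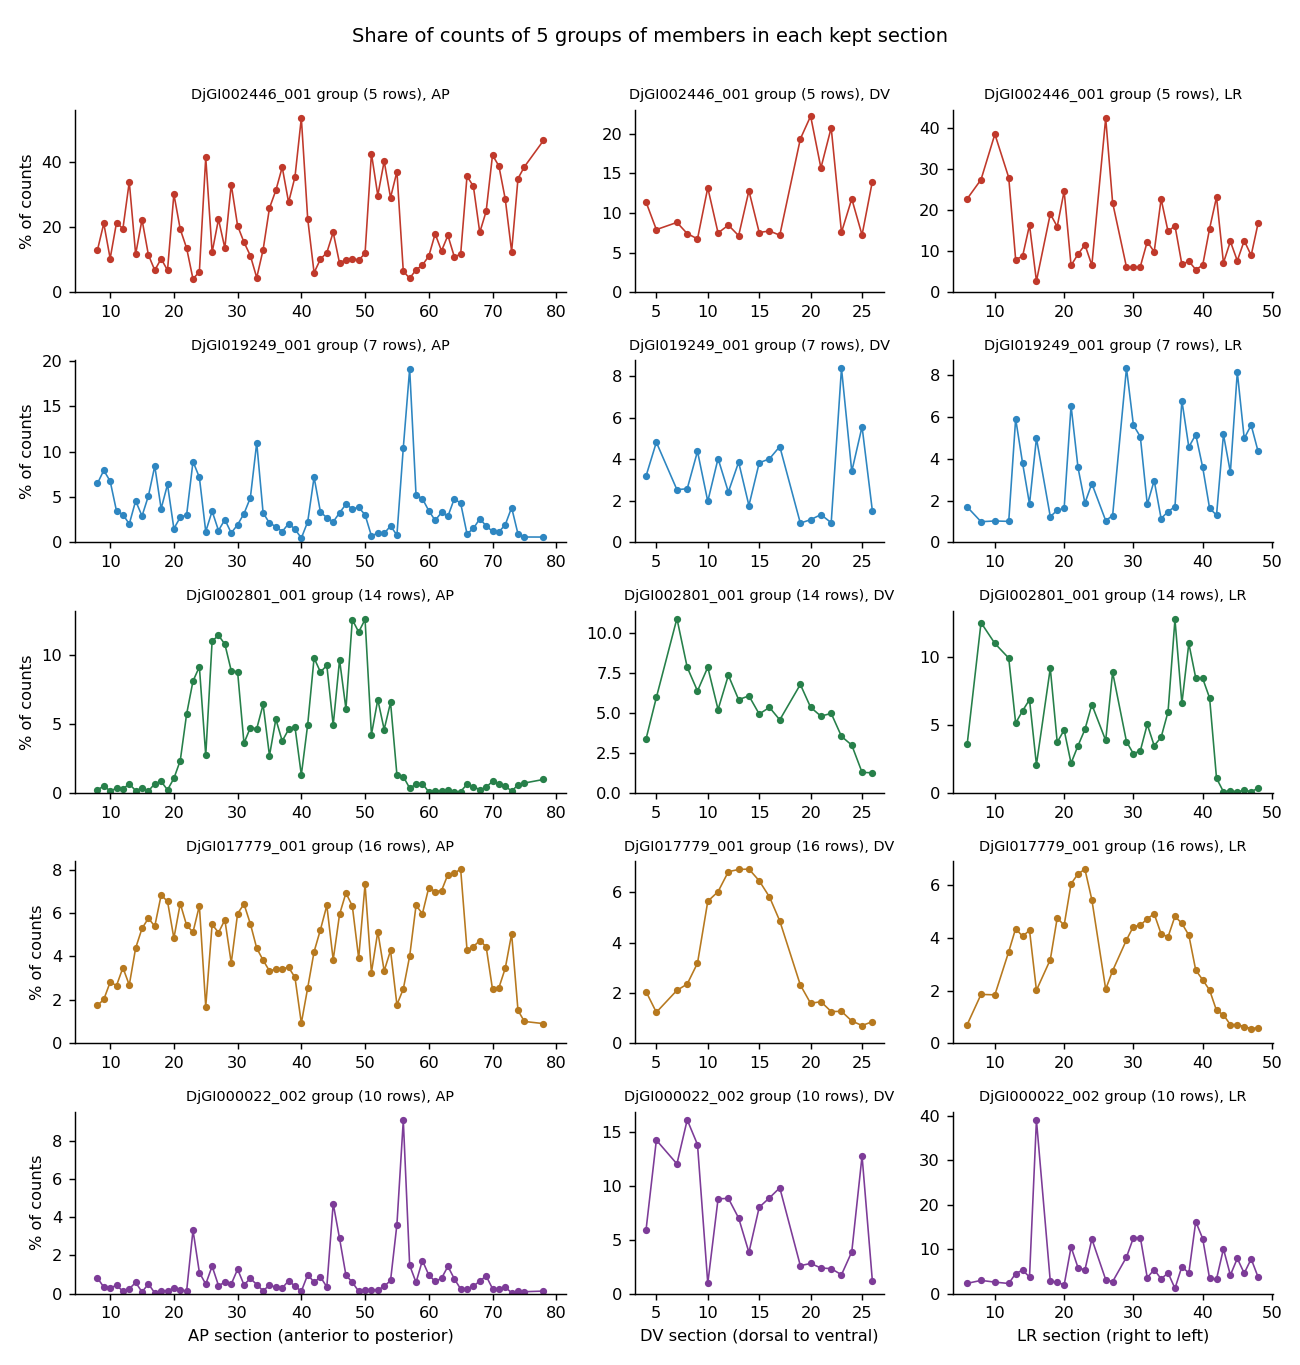
Percent of each section's counts held by 5 groups of members (vertical axis, scale set per panel) against section number in AP, DV and LR, for sections above the minimum total. The DjGI002446_001 group jumps between 3.99% and 53.4% along AP while the DjGI019249_001 group runs opposite to it, the DjGI002801_001 and DjGI017779_001 groups form blocks, and the DjGI000022_002 group is highest in AP section 56, DV section 8 and LR section 16.

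The rows at ranks 2 to 5, DjGI017786_001, DjGI019377_001, DjGI001770_002 and DjGI001770_001, formed a group of their own. It held 12.2% of AP, 9.56% of DV and 9.44% of LR counts in all. Its share ran from 5.32% to 34.0% in AP, from 5.09% to 14.0% in DV and from 4.88% to 12.2% in LR sections. The AP maximum was a local peak: section 56 stood at 34.0%, around an AP median of 11.7%. DjGI017786_001 had a median of 26817 scaled CPM in the anterior, 36454 in the middle and 32597 in the posterior part, and reached 157585 in section 56. The spline called all 4 rows in AP and in LR sections and none in DV sections by edgeR, where their adjusted p values ran from 0.051 to 0.0837. No comparison of parts called them by edgeR, while DESeq2 called all 4 higher in the DV middle.

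The DjGI000022_002 group joined the 8 DjGI000022 rows to DjGI019217_001 and DjGI019317_001. In the analysed DV sections its median share was highest on the dorsal side. Its share was 13.9% at the median of the 5 dorsal sections (5.96% to 16.2%), 8.43% in the 8 middle sections (0.968% to 9.85%) and 2.50% in the 8 ventral sections (1.23% to 12.8%). Ventral section 25, at 12.8%, stood apart from the other ventral sections, all of which were at or below 3.90%. DjGI000022_001 had 8513, 32847, 26509, 39362 and 38844 scaled CPM in the 5 dorsal sections, against 1840, 5231 and 25075 (lowest, median, highest) in the 8 ventral sections. The dorsal and ventral ranges overlap through dorsal section 4 and ventral section 25.

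The log2 fold change of dorsal over ventral was 2.01 for DjGI000022_001 (SE 0.50, adjusted p = 0.047) and 1.71 for DjGI019217_001 (SE 0.43, adjusted p = 0.0491). DjGI000022_002 and DjGI000022_005, which ran with them, missed the threshold narrowly at adjusted p values of 0.0504 and 0.0516. These calls rest on a thin margin: leaving out single DV sections gave 0 to 13 called members in place of 4 by edgeR, and DESeq2 called 16 members higher in the dorsal part. The other 2 dorsal calls were rows of the DjGI017779_001 group.

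Along the LR axis the DjGI000022_002 group was highest in section 16, which gave it 39.1% of its counts, against 2.32% to 5.31% in the other 7 right sections. Further high sections included 39 at 16.2%, 31 at 12.6% and 40 at 12.4%, around an LR median of 4.62%. DjGI000022_002 had 141637 scaled CPM in section 16, around a median of 7229 in the right part. In AP sections the group had a median share of 0.456% and peaks of 3.32% in section 23, 4.71% in section 45 and 9.06% in section 56. The 10 rows were called by the AP spline in every case and by the DV and LR splines in none by edgeR. DjGI019317_001 was the most posterior member. It had 4, 124 and 572 scaled CPM (lowest, median, highest) in the anterior part, against 0, 277 and 6827 in the posterior part. The posterior range contained the anterior range, and its highest value was in section 55. The log2 fold change of anterior over posterior was -2.78 (SE 0.62, adjusted p = 0.0037).

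The DjGI016853_001 group, of 19 rows, had its highest median share in the posterior part. Its share of counts had a median of 4.42% in the anterior part (2.36% to 8.75%) and 5.46% in the middle part (1.82% to 7.49%). In the posterior part the median was 7.00% (1.52% to 12.1%), with the peak in section 68. The posterior range contained the anterior range. The spline called 10 of the 19 rows in AP sections, all 19 in DV sections and 1 in LR sections. Between the end parts 6 of the 19 were called higher in the posterior part and 0 in the anterior part by edgeR, and 5 with column totals. All 19 had log2 fold changes of anterior over posterior below 0 with TMM factors, from -1.10 to -0.10, and up to 0.05 with column totals. DjGI017764_001 had 496, 1144 and 2973 scaled CPM (lowest, median, highest) in the anterior sections, against 955, 3272 and 6436 in the posterior sections, a log2 fold change of -1.10 for anterior over posterior (SE 0.22, adjusted p = 0.000833). The ranges overlap, and the posterior median lies above the highest anterior section.

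The most anterior member was DjGI016610_001, whose course was a narrow band behind the front of the covered head sections. It stood at 1014 to 1181 scaled CPM in sections 8 to 11, climbed through 11812 in section 14 and 17422 in section 15 to a maximum of 30627 in section 17, and was back at 1072 in section 25. Over sections 25 to 78 it had a median of 1374 and a highest value of 5096. The anterior part had 1014, 3649 and 30627 scaled CPM (lowest, median, highest), against 160, 1424 and 5096 in the posterior part, with a log2 fold change of 2.24 (SE 0.35, adjusted p = 1.66e-05). It was also the member called lower in the AP middle, with a log2 fold change of -1.45 (SE 0.30, adjusted p = 0.000973). It fell in no group, and its nearest member, DjGI016093_001, had a mean r of 0.66 over the 3 axes. DjGI017703_001, of the DjGI002801_001 group, was the other named anterior call, with a log2 fold change of 1.85 (SE 0.55, adjusted p = 0.0497), and it lost the call with the section total in the model (adjusted p = 0.235).

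The least variable member still had a called difference of parts in 1 axis. DjGI002750_001 had the lowest coefficient of variation of scaled CPM over the sections of the 3 axes, 0.23 on average. In AP sections it had a median of 1983 in the anterior, 2075 in the middle and 2094 in the posterior part, and its log2 fold change of anterior over posterior was -0.02 (SE 0.10, adjusted p = 0.964). It was called higher in the DV middle, with a median of 2717 scaled CPM, against 1654 in the dorsal and 1632 in the ventral part (log2 fold change 0.84, SE 0.26, adjusted p = 0.0372). It was not among the 14 members called higher there with the section total in the model. DjGI002504_001 came next, at 0.24. The most variable members were DjGI019217_001 at 1.45 and DjGI000022_002 at 1.42. Over all members the median coefficient of variation was 0.56 in AP, 0.47 in DV and 0.52 in LR sections, against 0.42, 0.42 and 0.29 in the 100 rows next in rank.

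Some members share an identifier. The identifier without its row suffix was shared by 2 or more members in 7 cases, which covered 20 members. DjGI001770_002 and DjGI001770_001 had a median ratio of 1.01 in each axis and a correlation of at least 0.999. DjGI002801_001 and DjGI002801_002 had a median ratio of 1.00 and the same closeness. Where rows are near-identical copies, the counting could have split reads between them, so the single levels of such rows are uncertain. The DjGI001770 rows sum to 4.76% of AP, 4.06% of DV and 4.08% of LR counts. The 8 member rows of DjGI000022, of 22 rows with that identifier, sum to 0.707%, 6.51% and 5.98%.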

How the data were processed

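Each axis has its own table of estimated counts, deposited by the authors. The submitters' processing notes name Salmon, BWA 0.7.17-r1188, fastp 0.21.0 and bcl2fastq 2.20.0, with no roles. The reference is not given in the sources used here. Per the labels' protocols, libraries were made with Lasy-Seq from polyadenylated RNA. Fractional values made up 1028 of 4013862 deposited values, and all were rounded before testing.

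Of 157 columns, 150 were tied to 1 section. The names of the other 7 also match another section, so they have no position. The members, lists and tests were chosen with earlier results of these data known. Rows that reached 5 counts in 10% of the analysed sections were fitted per axis with edgeR 4.0.16 in R 4.3.3 (quasi-likelihood F-test, TMM factors), with 3 parts or a natural spline (4 degrees of freedom), adjusted over all rows tested (Benjamini-Hochberg) and called under 0.05. SE values were read from the F statistic. DESeq2 1.42.0 was an alternative. The fit was checked on simulated counts. Named rows are the 10 highest, up to 2 called per comparison and direction by absolute log2 fold change, the 2 least and 2 most variable, and the rows on both sides of the list's edge. Others are group leaders or named after their values were seen.

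Alternatives were other scalings, filters, minimum totals, the section total as a covariate, DESeq2, leaving out sections 55 to 59 (AP) and leaving out each DV and LR section in turn. P-values measure the spread between sections, and the animals behind them are not labelled.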

Additional observations from a re-analysis of the deposited data

Results flagged for a closer look

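In groups of 4 to 10 sections, 10 of 63 comparisons had a section set apart from the others by more than a gap rule allows (Dixon's 95% limit). Chance flags about 1 in 20 independent comparisons. These comparisons share sections and rows, so that rate is no measure for the 10 flags. The members' share of counts was low in dorsal section 4, at 39.0%, and in ventral section 26, at 26.4%. Ventral section 26 was also low in the DjGI011135_001 group, at 0.354% of counts. Section 10 was the highest of the DV middle part in 3 groups: the DjGI016853_001 group at 6.48%, the DjGI017593_001 group at 0.525% and the DjGI000404_001 group at 0.374% of counts. Ventral section 25 was high in the DjGI000022_002 group at 12.8%, in DjGI000022_001 at 25075 scaled CPM and in DjGI019217_001 at 2764 scaled CPM. LR section 16 gave the DjGI000022_002 group 39.1% of counts.

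Columns outside the tests also held the members. The 7 AP columns with no position had a median share of 48.6% (41.8% to 66.4%). Sections below the minimum total had a median share of 62.4% in AP (n = 2), 30.0% in DV (n = 7) and 59.6% in LR (n = 14).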

How the results depend on the processing

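No paired analysis was possible because sections of different axes share only a number. The member list shared 95 rows with a list by median CPM, 94 with no minimum total, 98 without the unplaced columns and 99 with a minimum of 50%. Called members of the AP ends (14) became 24 with the 50% minimum, 32 with no filter, 31 with the section total in the model and 30 without sections 55 to 59, and those of the AP middle (17) became 26 with the section total. Of the 14, between 11 and 14 were called again under each of the 7 settings. Called members of the DV ends (4) became 19 with DESeq2, 0 with all sections, 2 with column totals, 20 with the 50% minimum, 2 with the section total, and 0 (without section 9) to 13 (without section 4) when a section was left out. Those of the DV middle (20) became 33 with DESeq2, 35 with the 50% minimum and 18 (without section 4) to 34 (without section 26). The DV spline (70) gave 66 to 83 when a section was left out. LR ends (0) became 1 with DESeq2 and stayed at 0 in each left-out section. LR middle (0) became 4 with DESeq2, 5 with all sections, 1 with column totals, 3 with no filter, 3 with the section total and 0 to 3 when a section was left out. The LR spline (41) became 93 with all sections, 64 with the section total and 37 to 43. The cause was not tested. Of the named members' fold changes, 9 lost the call and 70 did not under such settings, and 32 lost it and 73 did not when a section was left out, with no change of direction.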

Other observations

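The identifier numbers of the members were uneven. The 100 members had 87 distinct identifiers (leaving out the row suffix), and 22 of these fell in 1 run of consecutive numbers that held 2.56% of the 19543 identifiers of the table. The run was chosen after the numbers were seen, and what the numbering follows is not given in the sources used here.

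Single AP sections outside the blocks described above also stood far from their neighbours. AP section 40 gave the DjGI002446_001 group 53.4% and the DjGI019249_001 group 0.483% of its counts, and its total was 825916 counts.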
